A study of Mus musculus with 34 samples.

Results

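Alb, Serpina1a and Selenbp1 are 3 of the 637 genes named in both value tables of a 2-colour array study of muscle RNA from mdx and BL10 mice, some of them given L-arginine. They were chosen by name: every probe whose single annotated symbol is one of them was taken, which gave 3 Alb probes, 3 Serpina1a probes and 1 Selenbp1 probe in each table. Differences of Selenbp1 between the L-arginine and the untreated table, and of Serpina1a between diaphragm and hindlimb, were known when the genes were picked, so those differences are given as descriptions with no test.

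The 34 arrays fall into 8 groups: L-arginine-treated mdx diaphragm, L-arginine-treated BL10 diaphragm, L-arginine-treated mdx hindlimb and L-arginine-treated BL10 hindlimb, and the same 4 of untreated mice. The mdx mouse lacks dystrophin and is a model of Duchenne muscular dystrophy; the BL10 mouse has dystrophin; L-arginine is the amino acid from which nitric oxide is made. Each group has 1 array at 3, 5, 9 and 12 weeks of age, and both untreated mdx groups have a second 12-week array (Sample 1 and Sample 2). On each array, channel 1 carries a 12-week label of the strain and channel 2 the label of the array's own age, so on a 12-week array both channels carry the same label. The 16 L-arginine arrays and the 18 untreated arrays were deposited as 2 tables, one per platform, and treatment cannot be told apart from table. Nothing in the labels states that each array had its own animal, whether the 12-week RNA on L-arginine arrays came from treated mice, or what dose was given, and both channels of the 9-week array of L-arginine BL10 hindlimb are labelled mdx.

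Albumin is the main protein of blood plasma; it is made by hepatocytes and carries fatty acids, hormones and drugs. Serpina1a encodes a mouse alpha-1 antitrypsin, a plasma protease inhibitor from the liver that blocks neutrophil elastase, and belongs to a cluster of near-identical genes. Selenbp1 encodes a selenium-binding protein that oxidises methanethiol and is abundant in liver, and it has a near-identical neighbour, Selenbp2. Hepatocyte genes of this kind are commonly driven by the factors HNF1 and C/EBP acting close to the start of transcription.

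In RefSeq's annotation of mouse build GRCm38.p6, Alb lies at chr5:90460870-90476602, Serpina1a at chr12:103853295-103863619 and Selenbp1 at chr3:94933083-94944758. Serpina1b to Serpina1e lie on the same chromosome as Serpina1a, with Serpina1e at chr12:103946931-103956897, and Selenbp2 lies at chr3:94693573-94704406. Whether a probe annotated to 1 of these copies also binds another cannot be read from the tables, so the Serpina1a and Selenbp1 values are uncertain in that respect. The 150 bases before each gene's start are printed because the 3 genes share the label of liver-type genes and differ in these letters. Capitals mark the 6 letters GTTAAT (the core of the HNF1 motif; ATTAAC on the other strand) and the CCAAT box (ATTGG on the other strand), in windows chr5:90460720-90460869 on the plus strand for Alb, chr12:103863620-103863769 on the minus strand for Serpina1a and chr3:94932933-94933082 on the plus strand for Selenbp1.
Alb: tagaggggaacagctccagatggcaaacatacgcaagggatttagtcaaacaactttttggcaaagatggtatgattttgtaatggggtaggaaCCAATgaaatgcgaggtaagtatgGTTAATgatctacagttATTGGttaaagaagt
Serpina1a: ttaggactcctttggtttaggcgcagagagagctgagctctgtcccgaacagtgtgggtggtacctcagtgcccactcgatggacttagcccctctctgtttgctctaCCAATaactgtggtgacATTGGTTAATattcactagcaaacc
Selenbp1: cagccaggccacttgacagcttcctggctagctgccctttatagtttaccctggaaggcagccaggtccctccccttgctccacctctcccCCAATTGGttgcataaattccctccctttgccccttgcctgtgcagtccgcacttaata

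Alb and Serpina1a each held 1 match to GTTAAT, 32 and 21 bases before the start, and Selenbp1 held 0 in this window. Of all 32851 promoter windows of the same length, 3.71% held GTTAAT on either strand, 24.5% held a CCAAT box and 0.922% held both. All 3 windows held 2 CCAAT matches, and those of Selenbp1 overlap each other, as the ATTGG of Serpina1a overlaps its GTTAAT. These matches describe the letters of the windows and are not evidence of binding.

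The deposited values behave as a linear ratio of the channels, with array medians between 0.94 and 1.22 in the L-arginine table and between 0.73 and 1.08 in the untreated table. Each table held 1200 probes, of which 812 have 1 symbol. The ratio was read as the named age over the 12-week RNA, a direction that is likely but not stated; were it turned, every sign below would turn. Arrays of different strain correlated as low as -0.10 (Pearson r of log2 ratios over probes) in the L-arginine table and -0.41 in the untreated table, where 4 of 80 such pairs lay below -0.3. A ratio gives no level, so neither the amount of a transcript nor the identity of the tissue could be checked, and fewer cells of a type cannot be told apart from less RNA per cell. Among untreated BL10 arrays, those of hindlimb at 3 and at 12 weeks and that of diaphragm at 3 weeks stand apart: 522, 571 and 557 of the 637 genes had a value above 0 there.

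Serpina1a had its low ratios to the 12-week RNA mainly on the later L-arginine diaphragm arrays, and its 3 probes moved together there. In L-arginine mdx diaphragm the 3 probes had ratios of 0.97, 0.95 and 0.91 at 3 weeks, 0.94, 0.87 and 0.93 at 5 weeks, 0.42, 0.36 and 0.40 at 9 weeks, and 0.48, 0.38 and 0.36 at 12 weeks. In L-arginine BL10 diaphragm they had 0.73, 0.83 and 0.76 at 3 weeks, 1.15, 1.22 and 1.08 at 5 weeks, 0.46, 0.47 and 0.58 at 9 weeks, and 0.13, 0.15 and 0.14 at 12 weeks. The 9- and 12-week arrays of both strains thus lie below the 3- and 5-week arrays at every probe. The lowest value is that of BL10 at 12 weeks, where the gene mean of -2.84 on the log2 scale was the 8th lowest of 627 genes.

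Hindlimb arrays of the same table did not share this. The mean log2 ratio of Serpina1a in L-arginine mdx hindlimb was 0.07, 0.80, 1.14 and 0.80 at 3, 5, 9 and 12 weeks. In L-arginine BL10 hindlimb it was 0.28, 0.43, 0.43 and 0.51 at those ages, with 1 of the 3 probes at -1.40, which has no log, on the 3-week array. The probes disagreed on the 9-week array of that group, with ratios of 1.17, 3.00 and 0.69. All 8 hindlimb means lie above 0, whereas 7 of the 8 diaphragm means lie below it. The median of all genes ran from -0.01 to 0.43 on these hindlimb arrays and from -0.09 to 0.08 on the diaphragm arrays.

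In untreated mice Serpina1a stayed near or above 0 apart from single arrays. Untreated mdx diaphragm had log2 means of 0.39, 0.52 and 1.13 at 3, 5 and 9 weeks, then -1.59 for Sample 1 and 0.01 for Sample 2 at 12 weeks. Untreated BL10 diaphragm had 0.00, 0.26, 0.52 and 0.16 from 3 to 12 weeks. The arrays Sample 1 and Sample 2 carry the same labels in both channels and differ for this gene by more than the whole range of untreated BL10 diaphragm. Untreated mdx hindlimb had 0.11, 0.12 and 0.06 at 3, 5 and 9 weeks, and 0.28 and 0.03 on the 12-week arrays. Untreated BL10 hindlimb had -1.09, -0.08, 0.21 and -0.68 from 3 to 12 weeks, with the low values on the arrays that stand apart.

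**Figure D1:**
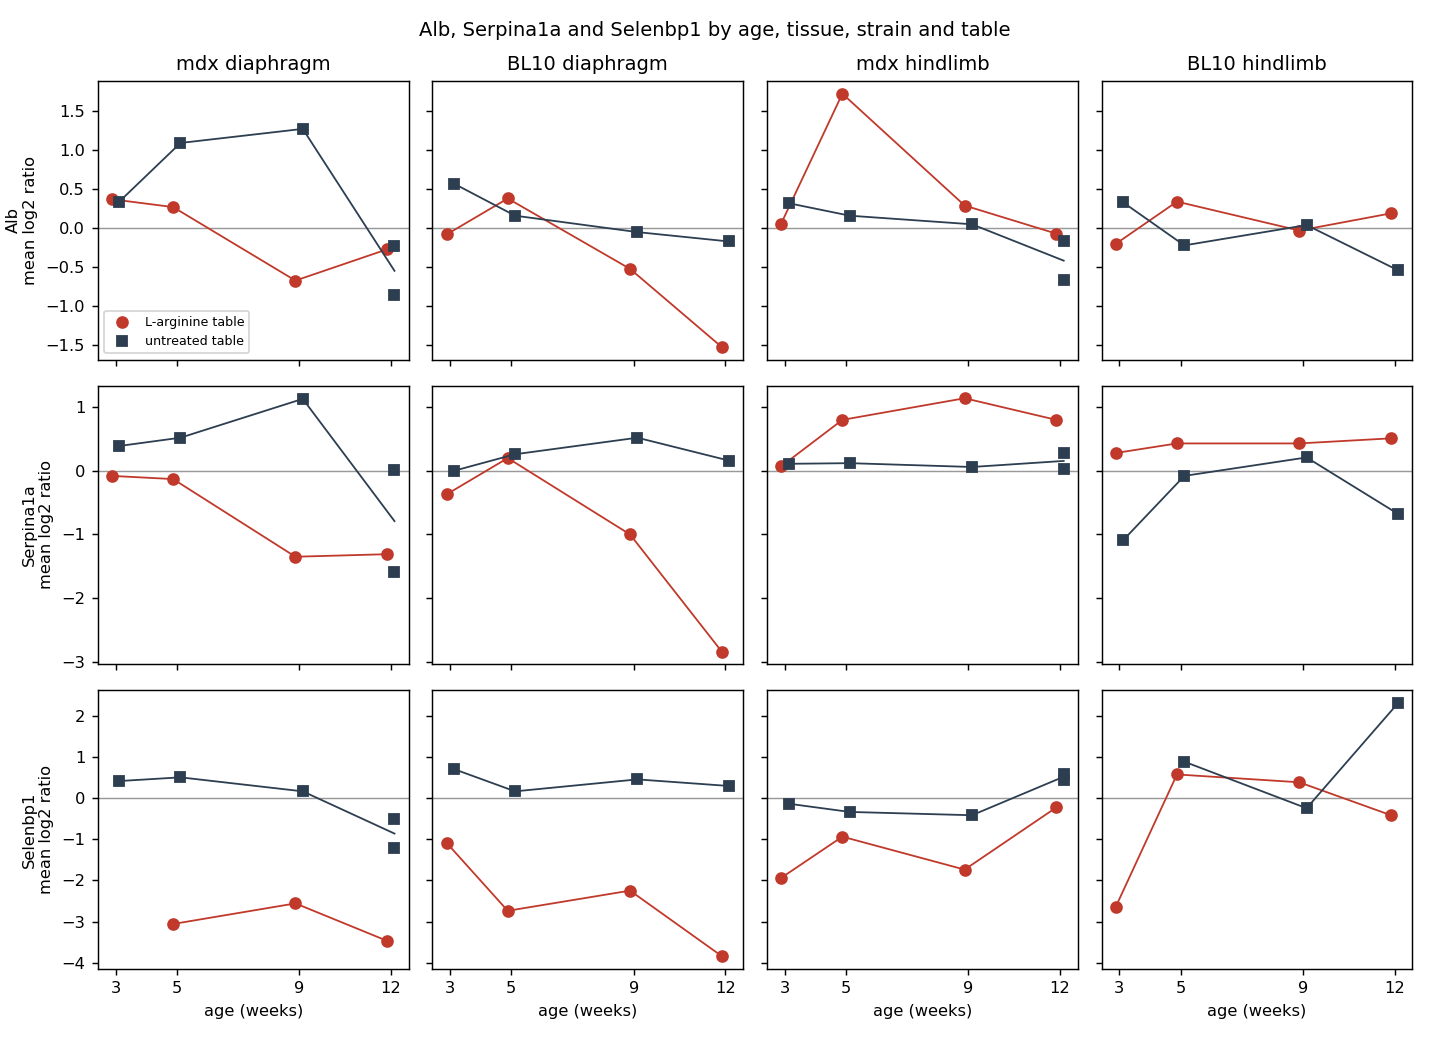
Mean log2 ratio of each gene (rows) against age in weeks for the 4 tissue and strain groups (columns), L-arginine arrays as red circles and untreated arrays as dark squares; lines join the mean at each age. Selenbp1 on L-arginine diaphragm arrays lies between -3.84 and -1.09, below all untreated diaphragm arrays of the same strain, and Serpina1a reaches -2.84 in L-arginine BL10 diaphragm at 12 weeks.

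Alb followed Serpina1a in part. Its log2 mean in L-arginine mdx diaphragm was 0.37, 0.27, -0.67 and -0.27 at 3, 5, 9 and 12 weeks. In L-arginine BL10 diaphragm it was -0.08, 0.38, -0.52 and -1.52, the last being the 15th lowest of 627 genes. As for Serpina1a, the later ages were the low ones in both strains. This rested mainly on 1 probe of the 3: in L-arginine BL10 diaphragm at 12 weeks the probe at position 754 of the table had a ratio of 0.07, against 0.66 and 0.92 at positions 906 and 981. At 9 weeks on the same tissue these probes had 0.31, 1.11 and 0.99, and in mdx 0.36, 0.82 and 0.84.

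L-arginine hindlimb arrays held the highest Alb value of all. L-arginine mdx hindlimb had 0.06, 1.72, 0.29 and -0.07 from 3 to 12 weeks, and at 5 weeks all 3 probes were above 1, with ratios of 3.54, 5.69 and 1.77. The median of all genes on that 5-week array was 0.43, the highest of the 34 arrays. L-arginine BL10 hindlimb stayed close to 0, with -0.20, 0.34, -0.03 and 0.19.

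In untreated mdx diaphragm Alb was 0.34, 1.09 and 1.27 at 3, 5 and 9 weeks, then -0.86 for Sample 1 and -0.23 for Sample 2 at 12 weeks. Untreated BL10 diaphragm had 0.57, 0.16, -0.05 and -0.17. Untreated mdx hindlimb had 0.32, 0.16 and 0.05 at 3, 5 and 9 weeks, and -0.66 and -0.17 on the 12-week arrays. Untreated BL10 hindlimb had 0.33, -0.22, 0.04 and -0.54, with 1 of the 3 probes below 0 on the 3- and 12-week arrays. All 6 untreated 12-week arrays were below 0 for Alb. The Alb probes disagreed again on Sample 1 of mdx diaphragm, with 0.30 and 0.34 at 2 probes and 1.63 at the other.

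**Figure D2:**
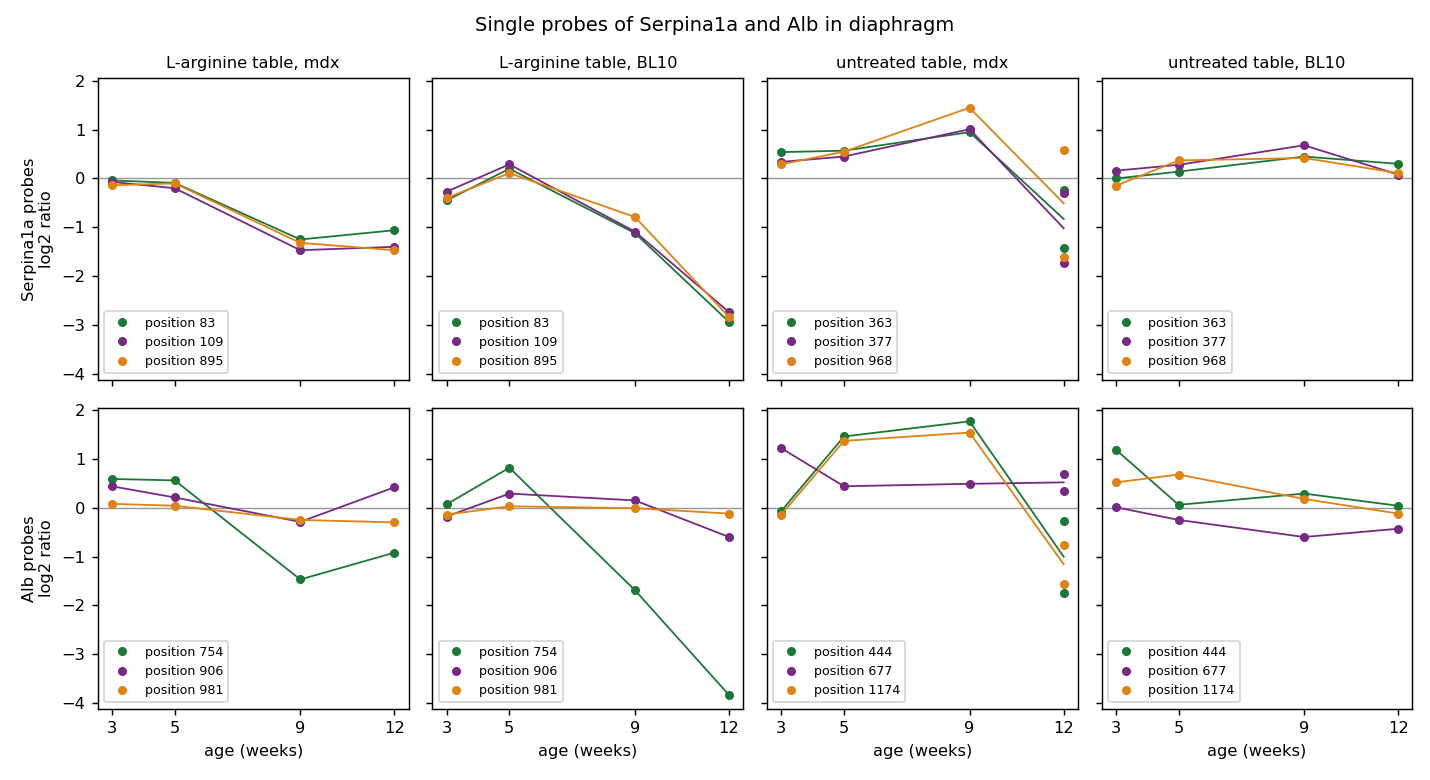
Log2 ratio of each single probe of Serpina1a (top) and Alb (bottom) in diaphragm against age in weeks, L-arginine table left and untreated table right, colours by the probe's position in its table. The Serpina1a probes reach -2.94, -2.74 and -2.84 together in L-arginine BL10 diaphragm at 12 weeks, where the Alb probes lie at -3.84, -0.60 and -0.12.

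Probes of Serpina1a agreed better than probes of Alb over all arrays of a table. For Serpina1a, the Spearman correlation between pairs of probes was 0.73 to 0.86 over 15 or 16 L-arginine arrays and 0.58 to 0.64 over 18 untreated arrays. For Alb it was 0.39 to 0.56 over 16 L-arginine arrays, and -0.16, -0.09 and 0.54 over 16 to 18 untreated arrays. These arrays share their 12-week RNA label within a strain, and the correlations are descriptions.

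Selenbp1 had the lowest ratios of the 3 genes, and its 1 probe was low in L-arginine diaphragm of both strains at all ages with a value. In L-arginine mdx diaphragm its ratio was 0.12, 0.17 and 0.09 at 5, 9 and 12 weeks, and -0.02, which has no log, at 3 weeks. In L-arginine BL10 diaphragm it was 0.47, 0.15, 0.21 and 0.07 from 3 to 12 weeks. On these 7 arrays with a log value it ranked between 1st and 4th lowest among 627 to 637 genes. The 12-week arrays, whose channels carry the same label, had the lowest log values in both strains.

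In L-arginine mdx hindlimb Selenbp1 had ratios of 0.26, 0.52, 0.30 and 0.85 from 3 to 12 weeks, all below 1. L-arginine BL10 hindlimb had 0.16, 1.48, 1.30 and 0.75, so the 3-week array lay far under the others. At 3 weeks the gene was 3rd lowest of 637 genes in mdx and 7th lowest of 626 in BL10. In mdx it was also 15th lowest of 618 at 5 weeks and the lowest of 616 at 9 weeks, but 98th of 632 at 12 weeks. In BL10 it was 479th of 635, 453rd of 622 and 66th of 626 at those ages.

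Untreated arrays gave Selenbp1 ratios around 1. Untreated mdx diaphragm had 1.33, 1.41 and 1.12 at 3, 5 and 9 weeks, then 0.70 for Sample 1 and 0.43 for Sample 2. Untreated BL10 diaphragm had 1.62, 1.12, 1.37 and 1.22. Untreated mdx hindlimb had 0.91, 0.79 and 0.75 at 3, 5 and 9 weeks and 1.51 and 1.36 at 12 weeks, and untreated BL10 hindlimb had -0.67 (no log), 1.84, 0.84 and 4.95. The extremes of the last group are on the 2 arrays that stand apart.

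Set against each other, the tables differed most for Selenbp1. Its log2 ratio averaged -3.03 ± 0.46 (SD, n = 3) in L-arginine mdx diaphragm and -0.13 ± 0.72 (SD, n = 5) in untreated mdx diaphragm, a difference of -2.90. In BL10 diaphragm it averaged -2.48 ± 1.14 with L-arginine and 0.40 ± 0.23 untreated (SD, n = 4 each), a difference of -2.88. In both strains every L-arginine array lay below every untreated one, which 2.85% of 632 genes did in mdx diaphragm and 5.85% in BL10 diaphragm, and Selenbp1 had the lowest difference of the 632. The other genes overlapped in diaphragm, so 0 of 3 lay wholly above, which 1.9% of genes did in mdx and 5.06% in BL10. The Selenbp1 probe was chosen with this difference known, so nothing is read from the rank.

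In hindlimb the tables overlapped for Selenbp1, and 0 of 3 genes lay wholly below, which 2.53% of genes did in mdx and 2.37% in BL10. It averaged -1.21 ± 0.78 (SD, n = 4) with L-arginine and 0.03 ± 0.46 (SD, n = 5) untreated in mdx, a difference of -1.24. In BL10 hindlimb it averaged -0.53 ± 1.47 (SD, n = 4) with L-arginine and 0.98 ± 1.28 (SD, n = 3) untreated, a difference of -1.51. Of 632 genes, Selenbp1 had the 2nd lowest difference in mdx hindlimb and the 5th lowest in BL10 hindlimb. The medians over all genes were 0.22 and 0.23, and nothing is read from these ranks either. The BL10 value was -0.84 without the untreated 12-week array and -0.80 without the L-arginine 3-week array, so single arrays set its size. It turned to 0.40 when ratios of 0 or below, here that of the untreated 3-week array, were set to a floor instead of left missing.

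Serpina1a differed in opposite directions in the tissues. It averaged -0.72 ± 0.71 (SD, n = 4) with L-arginine and 0.09 ± 1.02 (SD, n = 5) untreated in mdx diaphragm, a difference of -0.81, and -1.0 ± 1.32 with L-arginine and 0.24 ± 0.22 untreated in BL10 diaphragm (SD, n = 4 each), and the arrays overlapped in both. The mdx difference was -1.23 without Sample 1, and the BL10 difference of -1.24 was -0.63 without the L-arginine 12-week array. In mdx hindlimb it averaged 0.70 ± 0.45 (SD, n = 4) with L-arginine and 0.12 ± 0.10 (SD, n = 5) untreated, a difference of 0.58, and 0 of the 3 genes lay wholly above there, against 7.59% of genes. In BL10 hindlimb it averaged 0.41 ± 0.10 with L-arginine and -0.41 ± 0.59 untreated (SD, n = 4 each). Only in BL10 hindlimb, of these 4 comparisons, did every L-arginine array lie above every untreated array, as for 6.8% of 632 genes. The BL10 hindlimb difference of 0.82 was 0.59 and 0.73 without the untreated 3-week or 12-week array, while the median difference of all genes was 0.23.

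Alb overlapped between the tables in all 4 comparisons. The differences, L-arginine minus untreated, were -0.39 in mdx diaphragm, -0.56 in BL10 diaphragm, 0.56 in mdx hindlimb and 0.17 in BL10 hindlimb. Each is smaller than the larger SD of the groups compared. The mdx diaphragm value was -0.69 without Sample 1, the BL10 diaphragm value -0.20 without the L-arginine 12-week array, and the mdx hindlimb value 0.15 without the L-arginine 5-week array.

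Ordered by their mean log2 ratio, neighbouring groups differed by less than the larger of their SDs for Alb and Serpina1a throughout. Serpina1a ran from 0.70 in L-arginine mdx hindlimb down to -1.0 in L-arginine BL10 diaphragm. Alb ran from 0.50 ± 0.83 in L-arginine mdx hindlimb to -0.44 ± 0.81 in L-arginine BL10 diaphragm (SD, n = 4 each). Selenbp1 ran from 0.98 in untreated BL10 hindlimb to -3.03 in L-arginine mdx diaphragm, and the step between L-arginine mdx hindlimb and L-arginine BL10 diaphragm was the one that exceeded the larger SD.

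Strain was compared within each table, mdx minus BL10, with limma on all features and Benjamini-Hochberg adjustment at 0.05. Each strain is set against its own 12-week label, so the test compares ratios and not levels. In L-arginine diaphragm 0 of the 3 genes passed, against 0.0% of 1019 features with 27 at an unadjusted p under 0.05. The log2 differences there were 0.36 ± 0.32 for Alb, 0.28 ± 0.48 for Serpina1a and -0.71 ± 0.76 for Selenbp1 (SE; limma adjusted p = 0.998 for each), and the Serpina1a estimate was -0.28 without the BL10 12-week array. In L-arginine hindlimb 0 of 3 passed, against 0.393% of 1019 features, with 179 features and 0 of the 3 genes at an unadjusted p under 0.05. The differences were 0.43 ± 0.32 for Alb, 0.29 ± 0.48 for Serpina1a and -0.69 ± 0.74 for Selenbp1 (SE; limma adjusted p = 0.499, 0.786 and 0.661).

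In the untreated table the count was also 0 of 3 in each tissue, against 0.0% of 1014 features in diaphragm, where 100 features had an unadjusted p under 0.05, and 0.0986% in hindlimb, where 120 did. In untreated diaphragm the differences were 0.31 ± 0.29 for Alb, -0.06 ± 0.37 for Serpina1a and -0.56 ± 0.46 for Selenbp1 (SE; limma adjusted p = 0.813, 0.985 and 0.782), and the Serpina1a estimate was 0.28 without Sample 1. In untreated hindlimb they were 0.16 ± 0.29 for Alb and 0.61 ± 0.37 for Serpina1a (SE; limma adjusted p = 0.869 and 0.555). Selenbp1 had -1.05 ± 0.49 (SE; limma adjusted p = 0.42, unadjusted under 0.05) in untreated hindlimb, and -0.29 without the BL10 12-week array. The estimate for Selenbp1 was below 0 and that for Alb above 0 in all 4 comparisons, without passing in any. In untreated hindlimb these signs did not hold throughout: Selenbp1 turned to 0.86 when ratios of 0 or below were set to a floor, and Alb to -0.06 when a running median over probes was subtracted.

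**Figure D3:**
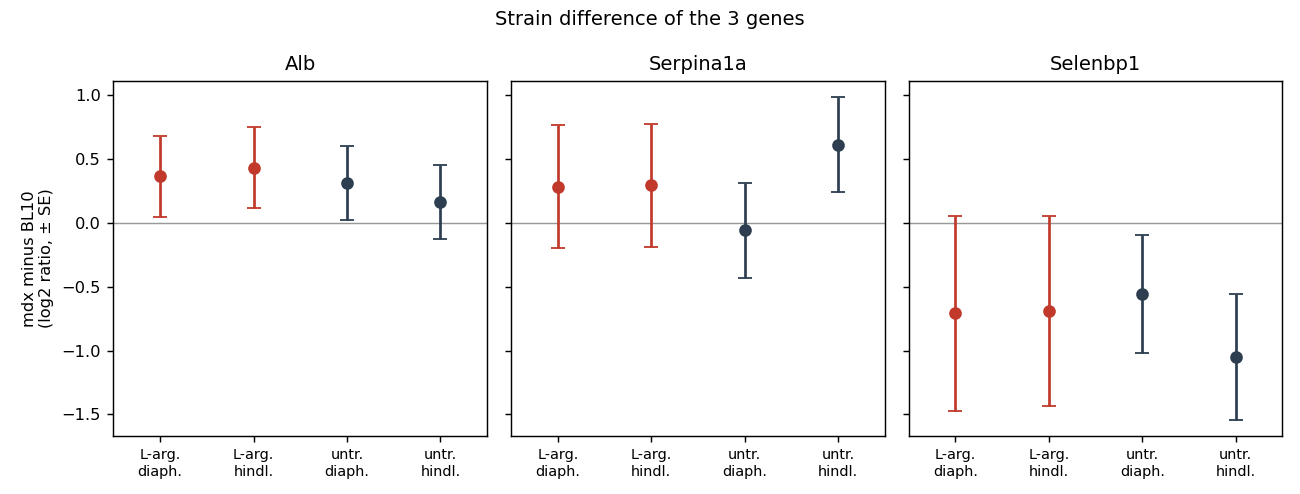
Difference in log2 ratio between mdx and BL10 (points, limma estimate; bars, SE) for each gene, in L-arginine diaphragm and hindlimb (red, left) and untreated diaphragm and hindlimb (dark, right). Selenbp1 lies between -1.05 and -0.56 in the 4 comparisons and Alb between 0.16 and 0.43, and none passed the test.

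Age gave no calls among the 3 genes in either table. A limma F test over the ages called 0.0% of 1019 features in the L-arginine table and 0.0% of 1014 in the untreated table, with 57 and 47 features at an unadjusted p under 0.05. Alb was among those in both tables (limma adjusted p = 0.71 in the L-arginine and 0.899 in the untreated table). Its ratio was 1.09 ± 0.32 (SE) higher on the log2 scale at 5 than at 12 weeks in the L-arginine table, and 0.87 ± 0.28, 0.78 ± 0.28 and 0.80 ± 0.28 (SE) higher at 3, 5 and 9 weeks than at 12 weeks in the untreated table (limma adjusted p from 0.414 to 0.931). On the 12-week arrays, whose channels carry the same label, untreated Alb averaged -0.42 in diaphragm and -0.45 in hindlimb. Part of each untreated difference is thus the distance of those arrays from 0. With L-arginine the 12-week means were -0.89 in diaphragm and 0.06 in hindlimb. Serpina1a had limma adjusted p = 0.788 in the L-arginine table and 0.899 in the untreated table, and Selenbp1 0.925 and 0.94.

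A term for tissue by age was added after the values had been seen, and Serpina1a gets no such test, since it was picked with its tissue difference known. The term called 0.0% of 1004 features in the L-arginine table by limma, with 148 at an unadjusted p under 0.05, among them Selenbp1 (limma adjusted p = 0.24). For Selenbp1 the difference of 3 weeks minus 12 weeks was 4.49 ± 1.02 larger in diaphragm than in hindlimb (SE; limma adjusted p = 0.124), from 1 diaphragm array at 3 weeks, since mdx has no log value there. Alb had an unadjusted p above 0.05. Among untreated arrays 0.0% of 982 features passed, with 49 at an unadjusted p under 0.05, Selenbp1 among them, and the limma adjusted p was 0.95 for Alb and 0.872 for Selenbp1.

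Of a list of 117 other liver and plasma protein genes, 11 had a probe of their own in both tables: the apolipoprotein genes Apoa1, Apoa2 and Apob, the alpha-1 antitrypsin copy Serpina1e, the antithrombin gene Serpinc1, the fibrinogen gene Fgg, the urinary protein gene Mup2, the clotting factor gene F9, and the enzyme genes Tat, Pck1 and Uox. None of the 11 passed the strain or age tests by limma in either table. At an unadjusted p under 0.05 the list had 0 and 1 members for strain in L-arginine diaphragm and hindlimb, 0 and 2 in untreated diaphragm and hindlimb, 2 for age in the L-arginine table and 0 for age in the untreated table. Of all features, 2.65% and 17.6% had such a p for strain in L-arginine diaphragm and hindlimb, 9.86% and 11.8% in untreated diaphragm and hindlimb, and 5.59% and 4.64% for age in the L-arginine and the untreated table.

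Several of these genes had low ratios on the arrays where Serpina1a was low. In L-arginine mdx diaphragm Apoa1, which forms high-density lipoprotein, had log2 ratios of 0.30, 0.16, -1.47 and -1.43 from 3 to 12 weeks, and in L-arginine BL10 diaphragm -0.47, 0.86, -1.40 and -3.18. Fgg, the gamma chain of fibrinogen, had 0.40, -0.45, -1.79 and -1.18 in L-arginine mdx diaphragm, and -1.40, 0.53, -2.06 and -3.64 in L-arginine BL10 diaphragm. Serpina1e, whose probe may also bind its near-identical copy Serpina1a, had -0.18, -0.18, -1.84 and -1.25 in L-arginine mdx diaphragm. In L-arginine BL10 diaphragm it had -0.62, 0.15, -1.22 and -3.18. The 9- and 12-week arrays are the low ones for these 3 genes in mdx, and in BL10 for Apoa1 and Serpina1e, while Fgg was also low at 3 weeks in BL10. Some other members of the list did not follow this in L-arginine mdx diaphragm. Serpinc1 had 1.79, 0.49, 0.33 and 0.15 from 3 to 12 weeks, and Uox had -0.17, 0.00, -0.27 and -0.09. Mup2 was lowest at 3 weeks and Pck1 at 5 weeks.

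Over the whole list, 11 of 11 members lay below 0 in L-arginine BL10 diaphragm at 12 weeks, with a median of -1.22, beside a median of 0.01 over all genes of that array. On the earlier BL10 arrays the count was 11, 3 and 10 of 11 at 3, 5 and 9 weeks, with medians of -0.54, 0.15 and -0.60. Of all genes, 44.3%, 59.0%, 47.5% and 48.8% lay below 0 on these BL10 arrays from 3 to 12 weeks. In L-arginine mdx diaphragm the list count was 7, 7, 9 and 10 of 11 from 3 to 12 weeks, with medians of -0.17, -0.18, -0.56 and -0.69. All genes had 43.0%, 48.4%, 54.0% and 52.9% below 0 there. In untreated mdx diaphragm the count was 11 of 11 on Sample 1, with a median of -0.62 beside 0.14 over all genes. On Sample 2 it was 9 of 11, with -0.36. Of all genes, 37.7% lay below 0 on Sample 1 and 47.9% on Sample 2. The array of untreated mdx diaphragm lowest for Serpina1a and Alb was thus also the lowest for the list. Untreated BL10 hindlimb, on the arrays that stand apart, had 8 of 9 at 3 weeks (median -0.58, all genes 64.2%). It had 9 of 11 at 12 weeks (-0.49, 66.2%). Other untreated hindlimb arrays had 1 to 7 of 11. L-arginine BL10 hindlimb had 7 of 10, 4 of 11, 4 of 10 and 3 of 11 from 3 to 12 weeks. All genes had 51.1%, 29.8%, 45.7% and 37.7% below 0 there. L-arginine mdx hindlimb had 8 of 11, 2 of 11, 4 of 9 and 2 of 10, beside 47.4%, 27.8%, 39.4% and 29.7%.

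**Figure D4:**
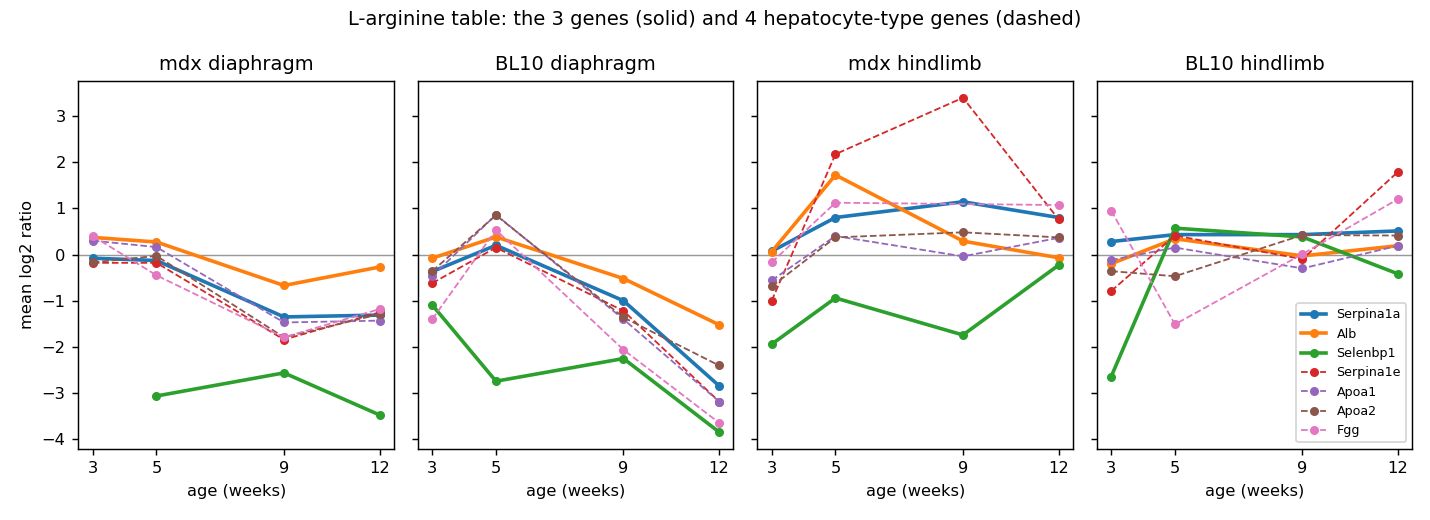
Mean log2 ratio against age in weeks on L-arginine arrays for the 3 genes (solid lines) and Serpina1e, Apoa1, Apoa2 and Fgg (dashed lines), by strain and tissue. In BL10 diaphragm at 12 weeks the 7 genes lie between -3.84 and -1.52, and Selenbp1 is low at all ages in diaphragm. Other members of the liver and plasma list are not drawn, and most of them were less low on that array. There Mup2 had -1.89, Tat -1.22, Uox -0.64, Apob -0.62, Serpinc1 -0.56, and Pck1 and F9 -0.47 each. Apob is a hepatocyte marker too.

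Marker lists of other cell types were read on the same arrays. Of 22 hepatocyte markers, 6 had a probe, and the 4 that are not among the 3 genes (Apoa1, Apoa2, Apob and Fgg) had array medians from -1.63 to 0.07 in L-arginine mdx diaphragm and from -2.79 to 0.69 in L-arginine BL10 diaphragm. In untreated diaphragm they ran from -0.70 to 1.03 in mdx and from 0.02 to 0.89 in BL10. Adipocyte markers (2 of 10 with a probe) ran from -0.57 to 0.20 in L-arginine diaphragm and from -0.66 to 0.46 in untreated diaphragm. Macrophage markers (3 of 9) ran from 0.72 to 1.27 in L-arginine mdx diaphragm and from -0.14 to 0.64 in L-arginine BL10 diaphragm, and fibroblast markers (2 of 7) from 1.07 to 1.87 and from 0.06 to 0.57 in those groups. In untreated diaphragm macrophage markers ran from -0.26 to 1.40 in mdx and from -0.18 to 0.21 in BL10. Fibroblast markers ran there from 0.23 to 2.07 and from -0.23 to 1.66. In L-arginine mdx hindlimb the 2 lists ran from 0.88 to 1.22 and from 1.21 to 2.47. The endothelial marker Pecam1 (1 of 5) ran from -0.47 to 0.11 in L-arginine diaphragm. The 14 measured of 20 muscle fibre markers ran from -0.07 to 0.11 in L-arginine diaphragm, and markers of blood and of mesothelium had no probe. The part of any cell type in the values of the 3 genes was not tested.

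Set between the tables, L-arginine minus untreated, 9 of the 11 list members were below 0 in mdx diaphragm and 10 in BL10 diaphragm, with medians of -0.48 and -0.75 beside -0.05 and 0.05 over all genes. In hindlimb 5 were below 0 in mdx and 2 in BL10, with medians of 0.06 and 0.30 beside 0.22 and 0.23 over all genes. Arrays did not overlap for 2 members below in BL10 diaphragm (Tat and F9), 1 below in mdx hindlimb (F9) and 2 above in BL10 hindlimb (Mup2 and Tat), against 5.85%, 2.53% and 6.8% of all 632 genes. Tat had only 2 L-arginine and 3 untreated values in BL10 hindlimb, and F9 only 3 untreated values in BL10 diaphragm. Groups with fewer values separate more easily.

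The label of liver-type genes was set against the genes with the most similar pattern, by the Spearman correlation of the log2 ratio over the arrays of a table. In the L-arginine table Serpina1a was most like Serpina1e (0.93, 16 arrays), followed by Parp12 (0.88), Nek4 (0.87), Serpinf2 (0.86, 15 arrays) and Fmod (0.85). Whether probes of the near-identical copies Serpina1a and Serpina1e bind each other's RNA is not known, so Serpina1e may not be a separate reading. Serpinf2 encodes the plasma inhibitor alpha-2 antiplasmin and is not on the list. Alb was most like Apoa1 (0.85, 16 arrays), then Tat (0.83, 12 arrays), Nek4 (0.82), Serpina1e (0.78) and Tmem259 (0.78). For Selenbp1 they were Pnkd (0.88, 15 arrays), Amacr (0.87, 13 arrays), Ncoa4 (0.85), Mgrn1 (0.79) and Capn1 (0.78), none of them on the liver and plasma list. Of the 3 genes, the Spearman correlation was 0.67 for Alb with Serpina1a, 0.70 for Serpina1a with Selenbp1 and 0.42 for Alb with Selenbp1.

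The untreated table gave other neighbours. Serpina1a was most like Pnpla2 (0.79, 16 arrays) and Nrp1 (0.79, 18 arrays), with Sc5d (0.75), Cfap52 (0.72) and Serpina1e (0.71, 18 arrays) next. Alb was most like Cdk2 (0.78, 17 arrays), Prkca (0.74), Dbi (0.69), Tifa (0.65) and Hmox1 (0.62), none on the list, and Selenbp1 like Ripor1 (0.66, 17 arrays), Apoa1 (0.66), Snrpb (0.64), H2-T23 (0.64) and Ubr7 (0.61). The Spearman correlation was 0.44 for Alb with Serpina1a and 0.04 for Serpina1a with Selenbp1. These are the highest of 632 values for a gene in the L-arginine table and of 636 in the untreated table, over at most 18 arrays that share labels and platform, and no test was made. Of the 5 genes nearest to Serpina1a in the L-arginine table, 1 was on the list, its copy Serpina1e. Of the 5 nearest to Alb, 3 were on the list. Pck1 and F9, however, ranked 385th and 330th of 632 for Serpina1a and 480th and 413th for Alb. For Selenbp1 the first list member there was Tat in 9th place (0.76, 11 arrays).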

How the data were processed

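The 34 arrays of 2 channels measured total RNA of diaphragm and hindlimb muscle. The deposited values of both tables have no stated unit; from the values they were taken for linear ratios between the channels. The authors' handling of dyes, background, normalisation and scaling was not given in the sources used here, and centring and direction are unknown as stated facts. Their number limits the precision, and no counts or spot signals were used. Groups come from the sample titles.

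Ratios were turned into log2, values of 0 or below became missing (2 to 36 probes per L-arginine array, 0 to 225 per untreated array), and probes of 1 single symbol were averaged per gene; probes with several symbols or none (99 and 289 per table) stayed single features without a name. Symbols come from the platform annotation and coordinates and promoter windows from RefSeq, build GRCm38.p6, in which all 3 genes matched. Features measured on 75% or more of a table's arrays were tested with limma 3.58.1 in R 4.3.3 (lmFit and eBayes, group and age as terms), with Benjamini-Hochberg adjustment over all features; the step was tested on simulated data with 200 changed features. Summaries and figures were made with Python 3.11.15, pandas 2.3.3 and matplotlib 3.10.9. P-values cover the array-to-array spread alone, possibly a technical one, and each age is replicated only across groups.

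The 3 genes and the gene lists were chosen with earlier results of these data known. The text names the 3 genes, members of the liver and plasma list that have a probe, and for each gene and table the 5 genes with the highest Spearman correlation. Alternatives were array centring, quantile normalisation, a running median over 51 neighbouring probes, a floor for values of 0 or below, the median over probes, single probes, a stricter filter, no age term, Sample 1 and Sample 2 averaged, no 12-week arrays and leaving out each array; tissue by age was added after the values were seen.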

Additional observations from a re-analysis of the deposited data

Results flagged for a closer look

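In L-arginine mdx mice Serpina1a lay below 0 on all 4 diaphragm arrays and above 0 on all 4 hindlimb arrays. The mean log2 ratio was -0.72 ± 0.71 in diaphragm and 0.70 ± 0.45 in hindlimb (SD, n = 4 each), a difference of -1.42. This difference between the tissues was not tested, because Serpina1a was chosen with a tissue difference known. Nor is 0 the centre of every array. From 3 to 12 weeks the median of all genes was 0.03, 0.43, 0.11 and 0.24 on the hindlimb arrays. On the diaphragm arrays it was 0.08, 0.01, -0.04 and -0.03. In 22 groups of the 3 genes large enough for a check of single arrays, no array was marked by Dixon's criterion. The arrays of a group are few and differ in age, so this check can mark little. It left unmarked the 3-week array of L-arginine BL10 hindlimb, where Selenbp1 had -2.64.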

How the results depend on the processing

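The count of the 3 genes that passed a strain or age test was 0 under all alternatives run; the smallest limma adjusted p was 0.0906, for strain in L-arginine hindlimb with single probes. Between the tables, 73 values moved by less than the spread between arrays when the processing changed. The 5 others were, with the floor, 1.26 for Alb in BL10 hindlimb, 0.33 for Serpina1a in BL10 hindlimb, -3.55 for Selenbp1 in mdx diaphragm and 0.40 for Selenbp1 in BL10 hindlimb, and, with quantile normalisation, 0.25 for Serpina1a in mdx hindlimb. The floor gives a very low value to ratios of 0 or below, which are missing otherwise. Strain differences turned their sign for Serpina1a in untreated diaphragm with Sample 1 and Sample 2 averaged (0.08), for Alb in untreated hindlimb with the running median (-0.06) and for Selenbp1 in untreated hindlimb with the floor (0.86); the cause of the first 2 was not tested. Leaving out 1 array, the strain difference of Serpina1a ran from -0.28 to 0.61 in L-arginine diaphragm and from -0.26 to 0.28 in untreated diaphragm, and no other strain difference of the 3 genes turned its sign. The L-arginine BL10 hindlimb array at 9 weeks, whose channel labels name mdx, moved the difference between the tables to -1.81 for Selenbp1 when left out, and left that of Serpina1a at 0.82. No paired analysis was possible because the labels give no replicate numbers that groups share; the age is a term of the fit.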

Other observations

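4 further genes of the liver and plasma list had patterns of their own on L-arginine arrays, given as values with no test, since they were picked after these were seen. Mup2, a major urinary protein gene, lay below 0 on all 8 diaphragm arrays (-3.47 to -0.42 in mdx, -2.47 to -0.12 in BL10) and above 0 on all 8 hindlimb arrays (0.28 to 1.16 in mdx, 0.81 to 2.01 in BL10). Its lowest diaphragm values, -3.47 in mdx and -2.47 in BL10, were on the 3-week arrays and were the lowest of the 628 and 636 genes with a log value there, whereas Serpina1a was lowest at 9 and 12 weeks. Low 3-week values of Mup2 were not particular to L-arginine or to diaphragm. Among untreated 3-week arrays it was also the lowest gene in BL10 diaphragm (-6.64) and mdx hindlimb (-3.84). It was not low in untreated mdx diaphragm (1.55) or BL10 hindlimb (0.18) at that age. Serpinc1, which encodes antithrombin, lay above 0 on all 8 mdx arrays (0.15 to 1.79 in diaphragm, 0.03 to 1.36 in hindlimb) and ran from -0.56 to 0.74 in BL10 diaphragm and from -1.32 to 0.56 in BL10 hindlimb. F9, which encodes clotting factor IX, lay below 0 on all 8 mdx arrays (-0.69 to -0.34 in diaphragm, -0.89 to -0.36 in hindlimb), and in BL10 it ran from -0.54 to 0.00 in diaphragm and from -0.49 to 0.45 in hindlimb, below 0 on 3 of the 4 arrays of each. Pck1, which encodes a gluconeogenic enzyme that fat tissue also makes, averaged -0.75 ± 0.82 (SD, n = 4) in L-arginine mdx diaphragm and 1.09 ± 1.49 (SD, n = 5) in untreated mdx diaphragm. Its difference of -1.84 was the 5th lowest of 632 genes, but the arrays overlapped. The untreated 3-week array had 3.20, the highest of its group.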
